A study of Arabidopsis thaliana with 6 samples.

Results

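Xyloglucan endotransglucosylase/hydrolases (XTH) are the enzymes that cut and rejoin xyloglucan, a polysaccharide of the plant cell wall. The members described here are the 9 XTH genes that the annotation of the Affymetrix ATH1 array lists under an XTH symbol with a number, each with 1 probe set assigned to a single gene: XTH16, XTH18, XTH19, XTH20, XTH21, XTH26, XTH29, XTH32 and XTH33. They are 9 of 13356 genes with a named probe set on the array. The rule itself goes by symbol and uses no measured value, but the family was picked for description with earlier results of these data known.

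Total RNA came from whole seedlings of Arabidopsis thaliana, harvested after 8 days of growth on a diluted Murashige and Skoog medium. The tested seedlings carried actin2-5, an allele of the actin gene ACT2 that the labels also call wavy, and were set against wild-type seedlings of the Columbia ecotype; the labels name no ecotype for the mutant and no other allele or treatment. The submitters describe 3 biological replicates per genotype, 1 array each, so 6 arrays in all. The title of the series places the work at the link of the actin cytoskeleton with auxin and brassinosteroid signalling, and the comparison asks which XTH transcripts differ between the genotypes.

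Xyloglucan chains coat cellulose microfibrils and join them into a network that must be remodelled as a cell enlarges. An XTH protein cleaves a xyloglucan backbone and passes the cut end to another xyloglucan chain, or, in a few members, to water, which shortens the chain. Arabidopsis has a large XTH family whose members differ in tissue and in response to hormones and touch, and many are most active in elongating root cells, root hairs and growing stems. Brassinosteroids and auxin are known to raise transcripts of several members.

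The measurements are log2 values, 1 per probe set, made by the authors with RMA, which forces all arrays to a common distribution. A difference of 1 is a doubling, changes of dim probe sets are understated, and levels of different probe sets cannot be set against each other. Array medians lay between 6.42 and 6.46. Lower quartiles were 4.5, 4.49 and 4.4925 on actin2-5 arrays 1, 2 and 3, against 4.51, 4.58 and 4.57 in wild type. The lower quartile of every actin2-5 array was thus below that of every wild-type array. Over all tested probe sets, pairs of actin2-5 arrays correlated at 0.9967 to 0.998, pairs of wild-type arrays at 0.9938 to 0.9954 and pairs of different genotype at 0.9902 to 0.9947. A control for 25S ribosomal RNA set the actin2-5 arrays apart from each other, with 10.63, 7.75 and 9.82 on replicates 1, 2 and 3, against 8.21, 8.13 and 8.2 in wild type. For XTH33 and XTH21, values that take this control into account, or leave out the arrays on which it was high, are given beside the results. ACT2 itself was not analysed here, so the mutated gene gives no check of the labels.

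Transcripts of 2 of the 9 XTH genes, XTH33 and XTH21, fell in actin2-5, and 0 rose. A gene was called when its adjusted p in limma, with Benjamini-Hochberg adjustment over all 22746 tested probe sets, was under 0.05. By that rule 1.11% of all probe sets were lower in actin2-5, 2.18% were higher and 3.3% were called in either direction, against 22.2% of the XTH probe sets called lower. The set of genes was proposed with earlier results of these data known, so this share is a description and no independent evidence. At an unadjusted p under 0.05, 4 XTH probe sets passed, of which 1 was higher, while 15.3% of all probe sets passed and 7% did so with a higher mean in actin2-5. XTH means were lower in actin2-5 for 7 of 9 probe sets, as for 57.5% of all probe sets, with a median log2 change of -0.08 over the members and -0.03 over all. The other 7 members did not pass the threshold.

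**Figure D1:**
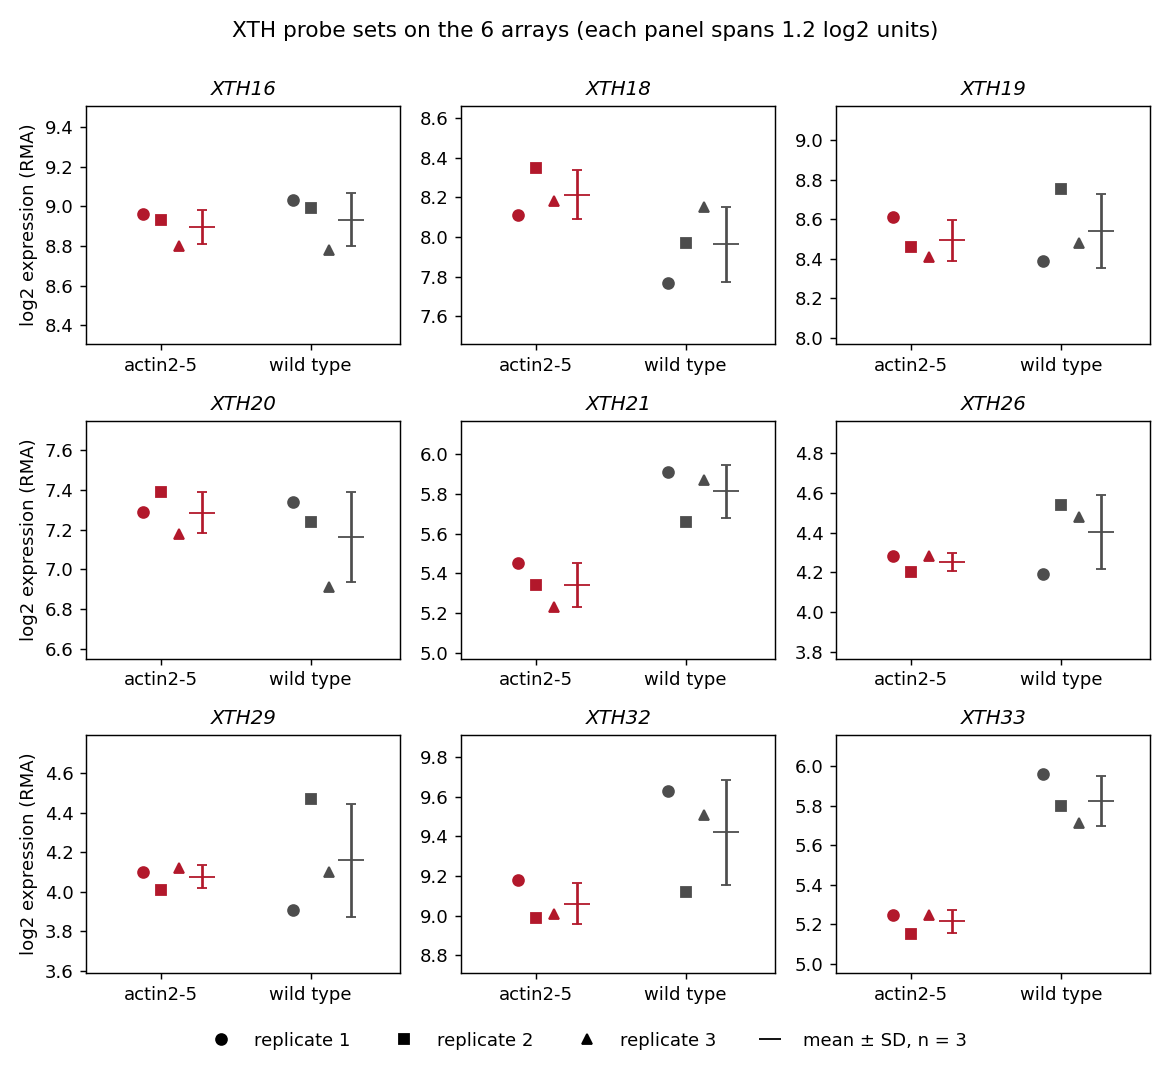
Log2 expression (RMA) of the 9 XTH probe sets on each array, with actin2-5 left of wild type in each panel, symbols for the replicates and bars for the mean ± SD of 3 arrays. XTH21 and XTH33 are the panels in which every actin2-5 array lies below every wild-type array; XTH32 comes close, with wild-type replicate 2 at 9.12 inside the actin2-5 range.

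XTH33 is the family member predicted to stay anchored at the plasma membrane, where most XTH proteins are secreted into the wall. Its probe set 263207_at, locus AT1G10550, read 5.25, 5.15 and 5.25 on actin2-5 arrays 1, 2 and 3, against 5.96, 5.8 and 5.71 in wild type. All actin2-5 arrays were lower than all wild-type arrays, and 0.46 log2 units separated the highest actin2-5 array from the lowest wild-type one. The actin2-5 mean was 5.22 ± 0.06 and the wild-type mean 5.82 ± 0.13 (SD, n = 3 each). XTH33 thus fell by 0.61 ± 0.09 on the log2 scale (SE; 95% interval -0.81 to -0.40), to 0.657 of the wild-type signal (limma adjusted p = 0.00553). Of all probe sets, 0.422% had a more negative change. The call held with each array left out in turn, with changes of -0.66 to -0.54 and adjusted p of 0.00938 to 0.0461, and with the 25S value as a covariate (-0.65 ± 0.12, adjusted p = 0.037). With actin2-5 replicates 1 and 3 left out, the arrays with high 25S signal, the change was -0.67 ± 0.15 and was no longer called (adjusted p = 0.227); that fit has 1 mutant array, assumed to vary like wild type.

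XTH21 is known for its part in primary root growth. Its probe set 266066_at, locus AT2G18800, read 5.45, 5.34 and 5.23 on actin2-5 arrays 1, 2 and 3, against 5.91, 5.66 and 5.87 in wild type. Here too the genotypes did not overlap, with a narrower gap of 0.21. The actin2-5 mean was 5.34 ± 0.11 and the wild-type mean 5.81 ± 0.13 (SD, n = 3 each), and XTH21 fell by 0.47 ± 0.10 (SE; 95% interval -0.69 to -0.25), to 0.72 of the wild-type signal (limma adjusted p = 0.0273). Of all probe sets, 1.05% changed more negatively. This call depended on single arrays: the adjusted p was 0.131 without actin2-5 replicate 2, 0.159 without actin2-5 replicate 3, 0.0644 without wild-type replicate 1 and 0.0886 without wild-type replicate 3. With the 25S covariate the change was -0.50 ± 0.13 (adjusted p = 0.14), and with actin2-5 replicates 1 and 3 left out it was -0.47 ± 0.16 (adjusted p = 0.546). Across these and the other settings tried, the change itself stayed between -0.55 and -0.42.

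Absence of overlap alone is common in this comparison. It was seen in 2 of 9 XTH probe sets, XTH21 and XTH33, in both of them with actin2-5 lower, and in 19.2% of all tested probe sets (10.8% with actin2-5 lower). Both probe sets were of modest signal, brighter than 39.6% (XTH21) and 39% (XTH33) of tested probe sets by their means over the 6 arrays. Whole seedlings hold many cell types, so a fall in the share of cells that express these genes and a fall of their RNA per cell cannot be told apart.

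XTH32 belongs with XTH31 to the subgroup of the family whose members can hydrolyse xyloglucan, cutting the chain without rejoining it. Its probe set 263841_at, locus AT2G36870, read 9.18, 8.99 and 9.01 on actin2-5 arrays 1, 2 and 3, against 9.63, 9.12 and 9.51 in wild type. Wild-type replicate 2 lay between the actin2-5 arrays, and the other wild-type arrays lay above all of them. The log2 change was -0.36 ± 0.13 (SE; 95% interval -0.65 to -0.07; limma adjusted p = 0.199), 0.779 of the wild-type signal, and did not pass. Without wild-type replicate 2 it was -0.51 ± 0.10 and passed (adjusted p = 0.0244). Wild-type replicate 1 had the opposite weight, with a change of -0.26 ± 0.13 (adjusted p = 0.315) when it was left out.

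**Figure D2:**
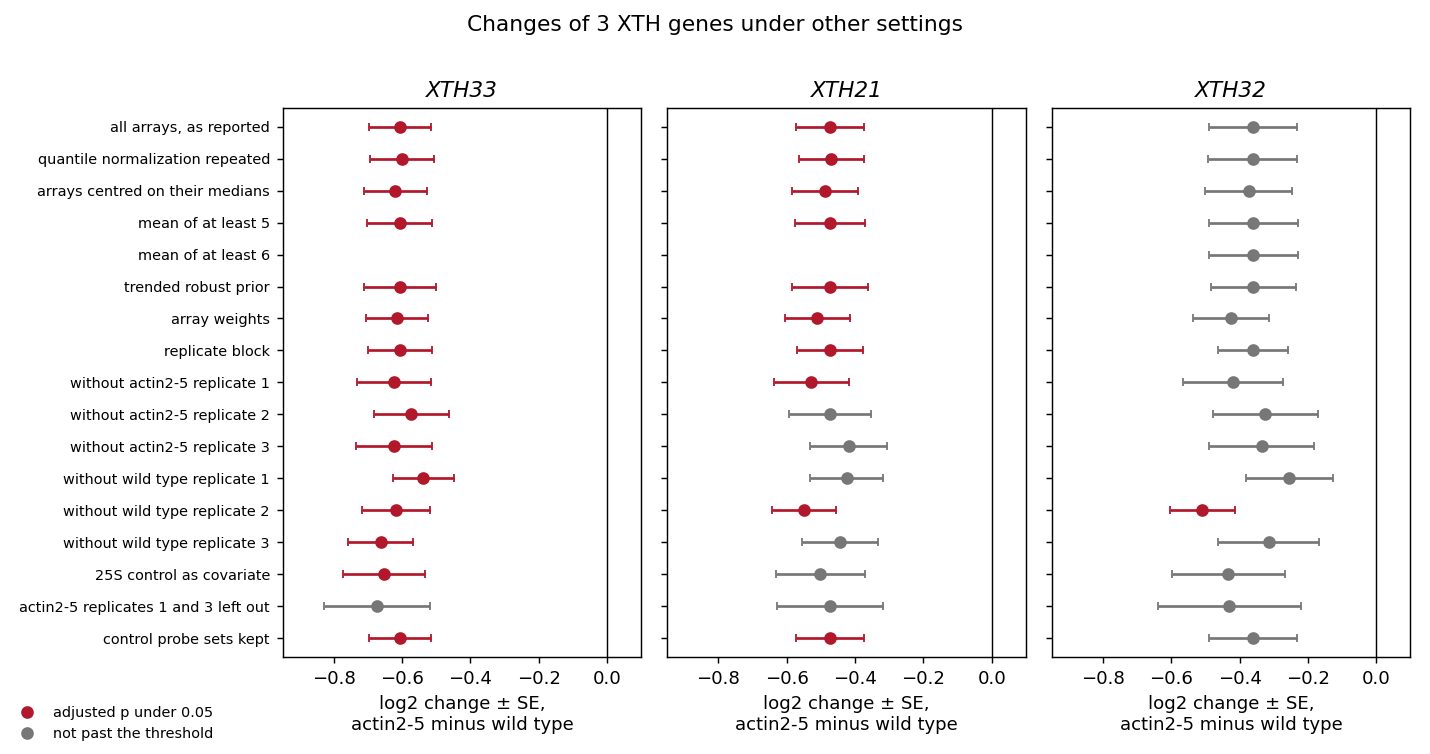
Log2 changes (actin2-5 minus wild type, ± SE) of XTH33, XTH21 and XTH32 with all arrays and under other settings, red where the adjusted p was under 0.05. The points of XTH33 and XTH21 move little, while XTH32 passes in 1 setting; XTH33 and XTH21 have no value in the setting that keeps only probe sets with a mean of at least 6, since both are dimmer.

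XTH18, XTH19 and XTH20 come from the branch of the family that is expressed mainly in roots, where XTH18 is also active in root hairs. Of these 3, 0 were called by limma, and XTH18 alone had an unadjusted p under 0.05. XTH18 (253628_at, AT4G30280) read 8.11, 8.35 and 8.18 in actin2-5 and 7.77, 7.97 and 8.15 in wild type. It had the most positive change of the members, 0.25 ± 0.11 (95% interval 0.0018 to 0.50; limma adjusted p = 0.322), with wild-type replicate 3 inside the actin2-5 range. XTH19 (253608_at, AT4G30290), the direct neighbour of XTH18 with 0 genes between them in the RefSeq gene order, read 8.61, 8.46 and 8.41 in actin2-5 and 8.39, 8.75 and 8.48 in wild type. Its genotypes overlapped fully, at -0.05 ± 0.11 (95% interval -0.29 to 0.19; adjusted p = 0.894). Whether the changes of these adjacent genes differ was not tested. XTH20 (248732_at, AT5G48070) read 7.29, 7.39 and 7.18 in actin2-5 and 7.34, 7.24 and 6.91 in wild type, a change of 0.12 ± 0.12 (95% interval -0.14 to 0.38; adjusted p = 0.692) that was at -0.0033 without wild-type replicate 3, the lowest array.

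XTH16 (257203_at, AT3G23730) had the closest means of the 9. It read 8.96, 8.93 and 8.8 in actin2-5 and 9.03, 8.99 and 8.78 in wild type, a change of -0.04 ± 0.10 (95% interval -0.25 to 0.17; limma adjusted p = 0.905). The interval leaves room for a fall to 0.842 or a rise to 1.13 of the wild-type signal, and the sign turned when actin2-5 replicate 3 or wild-type replicate 1 was left out (0.01 each).

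XTH26, a member expressed in root hairs, and XTH29, a member of the same subgroup as XTH33, gave signals too dim for their missing calls to say much. XTH26 (253763_at, AT4G28850) read 4.28, 4.2 and 4.28 in actin2-5 and 4.19, 4.54 and 4.48 in wild type, and XTH29 (254598_at, AT4G18990) read 4.1, 4.01 and 4.12 in actin2-5 and 3.91, 4.47 and 4.1 in wild type. In both, wild-type replicate 1 was the lowest of all 6 arrays and wild-type replicate 2 the highest, so the actin2-5 values lay inside the wild-type range. The change of XTH26 was -0.15 ± 0.10 (95% interval -0.38 to 0.08, limma adjusted p = 0.553). That of XTH29 was -0.08 ± 0.13 (95% interval -0.37 to 0.20, limma adjusted p = 0.825). With quantile normalization repeated, XTH26 was at -0.09 and XTH29 at -0.03. Without wild-type replicate 1, XTH26 was at -0.26 ± 0.09 (limma adjusted p = 0.151) and XTH29 at -0.21 ± 0.12 (limma adjusted p = 0.377). Only 20.8% and 15.5% of tested probe sets were dimmer than XTH26 and XTH29. The sign of XTH29 turned without wild-type replicate 2, at 0.07 ± 0.09.

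The spread between replicates was larger in wild type than in actin2-5 for 9 of 9 XTH probe sets, and for 66.3% of all tested probe sets. SDs of the members ran from 0.05 to 0.12 in actin2-5 and from 0.13 to 0.28 in wild type. No wild-type array was low or high throughout: replicate 1 was the highest wild-type array for XTH16, XTH20, XTH21, XTH32 and XTH33 and the lowest for XTH18, XTH19, XTH26 and XTH29.

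**Figure D3:**
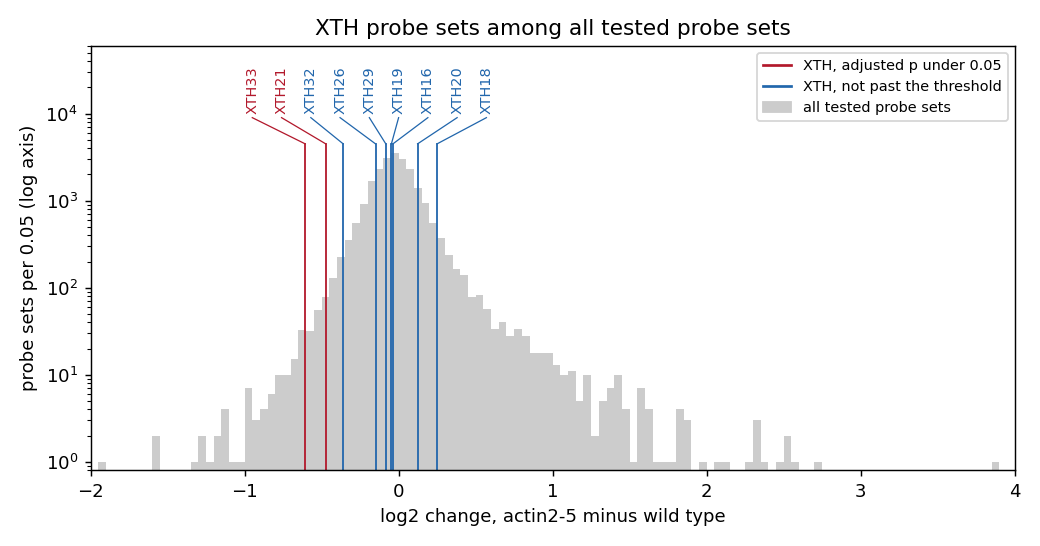
Histogram of log2 changes (actin2-5 minus wild type) of all 22746 tested probe sets in steps of 0.05, with a log axis for their number and a line for each XTH probe set. XTH33 and XTH21 stand in the lower tail, with 0.422% and 1.05% of probe sets further down, while XTH18, the most positive member, has 6.44% of probe sets above it.

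Of 33 XTH loci in the family, 10 have a single-gene probe set named here: the 9 members and XTH27, which the array annotation lists as EXGT-A3. XTH27, known for a part in xylem cell walls, read 11.1, 11.18 and 11.17 in actin2-5 and 11.13, 11.46 and 11.31 in wild type, a change of -0.15 ± 0.10 (limma adjusted p = 0.528). The other 23 loci, TCH4 (XTH22) among them, the touch- and brassinosteroid-induced member, were not analysed here, so the counts above do not describe the family as a whole.

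The genes that supply xyloglucan were followed in a list of 17 genes for its synthesis and trimming, of which 5 were measured, all of them CSLC genes. CSLC proteins are the glucan synthases that make the xyloglucan backbone. Of these, 0 of 5 were called by limma, against 3.3% of all probe sets. For 1, CSLC12, the unadjusted p was under 0.05, as it was for 15.3% of all probe sets. CSLC12 read 4.7, 4.39 and 4.51 in actin2-5 and 4.27, 4.11 and 4.32 in wild type, a change of 0.30 ± 0.10 (adjusted p = 0.179) in a dim probe set. CSLC4, the first of them known to act as a xyloglucan glucan synthase, was at 0.15 ± 0.13 (adjusted p = 0.654), CSLC6 at -0.08 ± 0.12, CSLC5 at -0.03 ± 0.17 and CSLC8 at 0.03 ± 0.17. In all 5, wild-type replicate 2 had the lowest wild-type value, as it did in XTH21 and XTH32. Without that array XTH21 was at -0.55 ± 0.09 (adjusted p = 0.0166), and 0 CSLC genes were called. The list's median change was 0.03, against -0.03 over all probe sets. Xyloglucan xylosyltransferases and the trimming glycosidases of the list were not analysed here.

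Markers of the tissues in a whole seedling were set beside the XTH values. Of 8 listed root hair genes 2 were measured, the expansins EXPA7 and EXPA18, which loosen the wall of growing root hairs. Both were called lower in actin2-5, as were 1.11% of all probe sets. The marker lists were chosen with earlier results of these data known, so these calls are a description and no independent evidence. The EXPA7 mean was 6.77 ± 0.08 for actin2-5 against 7.63 ± 0.32 for wild type (SD, n = 3 each; limma adjusted p = 0.00909). The EXPA18 mean was 6.28 ± 0.04 for actin2-5 against 7.23 ± 0.35 for wild type (SD, n = 3 each; limma adjusted p = 0.00636). Their summed signal on a linear scale was 179 to 195 in actin2-5 and 269 to 419 in wild type. Of the root markers PYK10 and NAI2, 0 of 2 were called, and they lay on opposite sides of 0. NAI2 read 10.07, 9.89 and 9.97 in actin2-5 and 10.16, 10.12 and 10.47 in wild type, without overlap, a change of -0.27 ± 0.11 (limma adjusted p = 0.255) and the 1 marker of the pair with an unadjusted p under 0.05. PYK10 read 13.38, 13.4 and 13.46 in actin2-5 and 13.31, 13.37 and 13.28 in wild type, also without overlap, a change of 0.09 ± 0.08 (adjusted p = 0.644). The median change of the pair was -0.09, and their summed linear signal, 11736 to 12271 in actin2-5 and 11300 to 11700 in wild type, is mostly PYK10. The 4 measured of 5 green tissue markers had summed signals of 38926 to 41143 in actin2-5 and 40396 to 43339 in wild type. Of these markers 0 were called and 0 had an unadjusted p under 0.05, against 3.3% and 15.3% of all probe sets. Their median change was -0.11. LHCB4.2 was lower in actin2-5 without overlap (-0.12 ± 0.08, limma adjusted p = 0.526), and LHCB4.1 alone of them had a higher mean, at 0.08 ± 0.09. Over all probe sets, 19.2% did not overlap. The 2 measured root hair markers, both expansins, thus moved in the same direction as XTH21 and XTH33. So did the mean of NAI2 and the green tissue median. PYK10 and XTH18, the latter also active in root hairs, had higher means in actin2-5 (0.09 and 0.25) and were not called. XTH26, expressed in root hairs, was at -0.15 and was not called. The part of these markers in the XTH result was not tested.

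**Figure D4:**
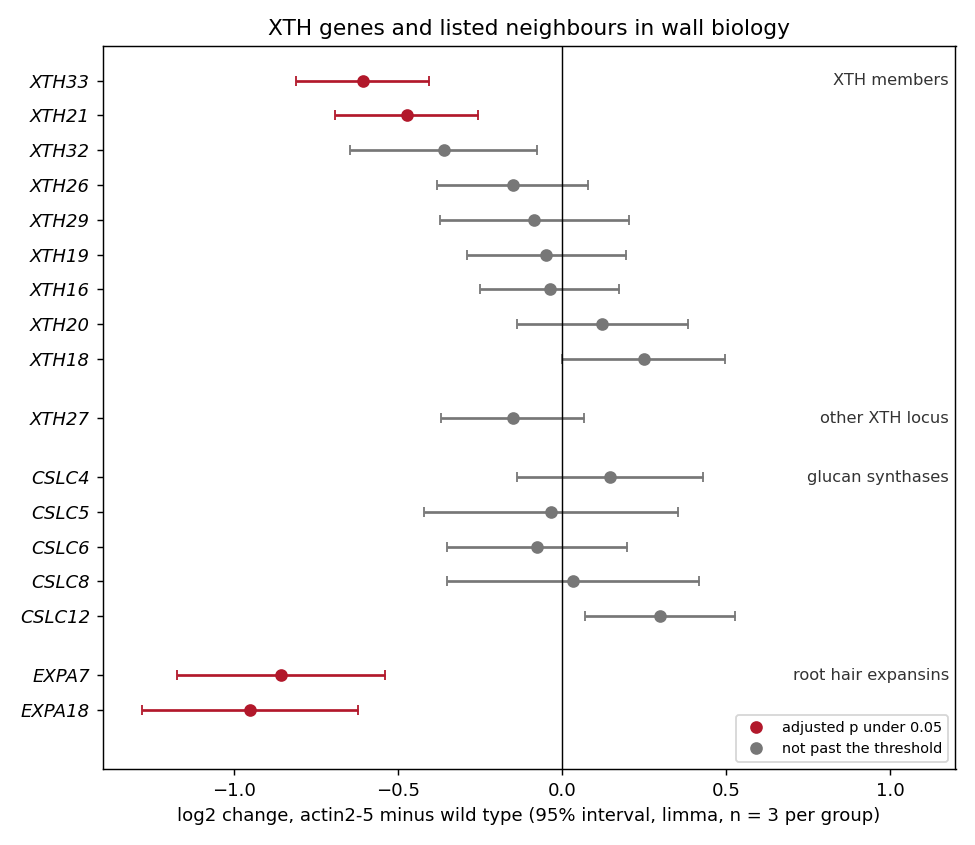
Log2 changes (actin2-5 minus wild type) with 95% intervals from limma, n = 3 arrays per genotype, for the 9 XTH members, XTH27, the 5 measured CSLC genes and the root hair expansins EXPA7 and EXPA18, red where the adjusted p was under 0.05. XTH33, XTH21, EXPA7 and EXPA18 are the called genes among those drawn, all lower in actin2-5.

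Genes whose log2 values most resembled XTH33 over the 6 arrays, by Pearson correlation among all single-gene probe sets, were AT3G14710, AT3G45160 and AT3G44610. For AT3G14710 r was 0.989, for AT3G45160 it was 0.985 and for AT3G44610 it was 0.983. AT3G45160 read 8.22, 8.25 and 8.19 in actin2-5 and 8.98, 8.77 and 8.67 in wild type. Its change of -0.59 ± 0.10 was called (limma adjusted p = 0.00816), while AT3G14710 and AT3G44610 changed by -0.18 and -0.14 and were not called. For XTH21 the closest were AT3G13770 with r of 0.994, AT5G40040 with r of 0.991 and AT1G68780 with r of 0.988. AT1G68780 read 6.27, 6.19 and 6.01 in actin2-5 and 6.87, 6.54 and 6.68 in wild type and fell as well (-0.54 ± 0.11, adjusted p = 0.0225); AT3G13770 and AT5G40040, at -0.06 and -0.13, were not called. The 6 points of each correlation form 2 genotype clusters, and the 3 genes are the closest of all single-gene probe sets, so r describes these arrays only. A lower actin2-5 mean follows from choosing genes in this way, so their falls are no separate evidence.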

How the data were processed

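The deposited table holds log2 expression values per probe set, made by the authors with RMA in the affy package, per the submitters' processing notes; the sources used here give no versions, chip definition or genome build, and no coordinates are printed. Of 22810 probe sets, 64 AFFX controls were left out and 22746 tested. The platform annotation gives 13513 of these 1 gene, 503 several and 8730 (38.4%) none. All 9 XTH probe sets matched RefSeq's TAIR10.1 table, which supplied loci and gene order. Genotypes were compared with limma 3.58.1 (lmFit, eBayes) in R 4.3.3, two-sided, as actin2-5 minus wild type, with Benjamini-Hochberg adjustment over all tested probe sets. Arrays give no counts, and their number, 3 per group, limits the precision. The fit was also run on simulated data with equal spread in both groups. That setting differs from these arrays, where 66.3% of probe sets had the larger SD in wild type, so nothing is concluded from it. All members, the CSLC-containing list and markers are named, with the 3 most alike genes for each called member; members and lists were chosen with earlier results of these data known. Alternatives covered normalization, dim filters of 5 and 6, the prior, array weights, the replicate block, arrays left out, the 25S covariate, a threshold of 0.1 and kept controls. Promoter and protein sequences were not used here. Plots used matplotlib 3.10.9 (Python 3.11.15).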

Additional observations from a re-analysis of the deposited data

Results flagged for a closer look

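In the control probe sets, which the comparison leaves out, AFFX-r2-At-U12639_at read 7.88, 8.31 and 7.97 in actin2-5 and 4.36, 4.47 and 4.43 in wild type, a log2 difference of 3.63 (adjusted p = 3.45e-07 in a limma fit that kept the controls). It drew attention as a signal outside the main measurement that was higher in actin2-5 on 3 of 3 arrays. Outlying arrays within the groups of 3 were not sought by Dixon's ratio.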

How the results depend on the processing

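Under 17 alternatives, the 2 called XTH genes became 0 when only probe sets with a mean of at least 6 were kept, which removes XTH21 and XTH33, and 0 with actin2-5 replicates 1 and 3 left out. They became 1 with the 25S covariate, XTH33, and 1 to 3 when single arrays were left out. The 750 called probe sets became 283 with the 25S covariate, 103 with actin2-5 replicates 1 and 3 left out, 1210 at an adjusted p under 0.1 and 290 to 896 when single arrays were left out. XTH33 was called in 15 of 16 settings and XTH21 in 10 of 16, with no change of sign. The threshold of 0.1 reads the same fit, so that setting could not lose a call or change a sign. Keeping the controls left the fit almost as it was (limma adjusted p = 0.00554 for XTH33 and 0.0274 for XTH21). Both settings are in these tallies. With single arrays left out, signs of uncalled genes turned for XTH16 (-0.1133 to 0.0117, positive without actin2-5 replicate 3 or wild-type replicate 1), XTH19 (-0.1217 to 0.0583) and XTH29 (-0.2083 to 0.0717), both positive without wild-type replicate 2, and XTH20 (-0.0033 to 0.2117, negative without wild-type replicate 3). The 5 measured of the 17 genes in the xyloglucan list, all CSLC, had 0 calls in every setting. Under either dim filter 4 of them remained. With 3.3% of all probe sets called in the main fit, so few genes cannot show whether xyloglucan synthesis or trimming changed. With the replicate block XTH33 stayed at -0.61 (limma adjusted p = 0.00503) and XTH21 at -0.47 (limma adjusted p = 0.0238). The block changed no XTH call, while 907 probe sets passed. Deviations of same-numbered arrays correlated at 0.0619, 0.0866 and 0.0833, and 6 of 6 arrays correlated best with their own number. Each same-number pair counts for both of its arrays, and deviations are centred within each genotype, so these are not 6 separate agreements. The data thus give only a weak hint of a pairing that the labels do not state. The numbers were not taken as pairs. Causes were not tested beyond what each alternative removes.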
